A study of Mus musculus with 6 samples.

Results

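The LKB1 complex genes are the 5 matrix rows with the symbols Stk11, Strada, Stradb, Cab39 and Cab39l, out of 31055 features. The rule lists them by symbol and uses no measured value, and all 5 were detected. The values come from cells sorted out of mouse lung tumors and profiled by 10x Genomics 3-prime single-cell RNA sequencing, in which every captured transcript copy carries a unique molecular identifier (UMI) and is counted once.

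The labels describe 6 mice, and tumors in all of them were started by Lenti-Cre, a lentivirus that carries the Cre recombinase into lung epithelial cells. Every mouse carried 2 copies of the Lkb1 XTR allele and the red reporter tdTomato in the Rosa26 locus, which Cre switches on. Of the 3 mice of the NonRestored group, 1 lacked FLPo-ERT2 and received tamoxifen, 1 lacked FLPo-ERT2 and received vehicle, and 1 carried FLPo-ERT2 and received vehicle. All 3 mice of the Restored group carried FLPo-ERT2 and received tamoxifen. Tumors grew for 20 weeks, and tamoxifen (4 mg doses) or vehicle was given during the last 2 weeks. Both recombinases act cell by cell, so a tumor can hold cells in different states of the allele. FLPo-ERT2 sits in Rosa26 and is not limited to the lung. Sorting collected tdTomato-positive cells, and cells bearing CD45, CD31, F4/80 or Ter119 were discarded.

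LKB1 is a serine/threonine kinase and tumor suppressor, encoded by Stk11 and often lost in human lung adenocarcinoma. It is switched on by a partner rather than by phosphorylation of its activation loop. A STRAD pseudokinase (STRADα from Strada, STRADβ from Stradb) binds the kinase domain, and an MO25 scaffold protein (MO25α from Cab39, MO25β from Cab39l) locks the pair in the active form. The assembled complex phosphorylates AMPK and its relatives, among them the SIK, MARK, NUAK and BRSK kinases. In the XTR allele, an inverted gene trap made of a splice acceptor and a GFP sequence lies in the first intron of Stk11. Cre turns the trap around, so that the transcript is cut short and ends in GFP, and FLPo deletes the trap.

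Cells could not be traced to mice in the files used here. The pooled matrix was therefore handled as 1 sample, no test was run, and the comparison of Restored with NonRestored mice was not analysed here. Every 95% interval covers counting error only and says nothing about differences between mice. Whether a difference between classes of cells is a difference between mice cannot be told apart. Levels are UMIs of a gene for each 1000000 UMIs added up over a class of cells (CPM). In 3-prime counting a transcript gives 1 UMI whatever its length, but capture differs between genes, so levels are compared between classes and not between genes.

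Of 16017 cells, 12183 had at least 500 genes and at most 20% mitochondrial UMIs, with a median of 19348 UMIs. They were assigned to 3 gates by the share of a few transcripts, in UMIs per 10000. The ATII gate (Sftpc at least 500, Hopx under 2, Krt8 plus Krt18 under 50) held 6975 cells, the ATI gate (Hopx at least 15, Krt8 plus Krt18 under 50) 956 cells, and the keratin-high gate (Krt8 plus Krt18 at least 50) 1183 cells. The other 3069 cells met no gate. The gates matched their labels, since 10 of 10 further markers of alveolar type II (ATII) cells, 10 of 10 of alveolar type I (ATI) cells and 8 of 8 of transitional cells were highest in their own gate of the 3. Median depth differed, at 21660 UMIs per cell in the ATII gate, 11796.5 in the ATI gate and 23490 in the keratin-high gate. Summed over 5 markers each, endothelial genes were at 6.91 to 16.9 CPM in the 3 gates, fibroblast genes at 9.82 to 30.9 CPM and immune genes at 0.489 to 3.97 CPM, and their part in the results was not tested. Small sets of ungated cells with endothelial (125 cells), fibroblast (241 cells) or immune (78 cells) transcripts served as reference cells that remained after sorting.

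The full-length Stk11 transcript and the trapped transcript start from 1 promoter, because the trap lies downstream of it. Stk11 (ENSMUSG00000003068) spans chr10:80115803-80130682 on the plus strand of GRCm38, and its first intron, which holds the trap in the XTR allele, runs over 7894 bases from 80116908 to 80124801. Its last exon (80130256 to 80130682) overlaps Cbarp, which spans 80130451 to 80140835 on the opposite strand. Its sequence before the start site is shown for that reason, and those of Cab39 and Cab39l because these scaffold genes had the widest ranges of the 4 partners over the 3 gates and ungated cells, each split by GFP (1.012 and 0.98 on the log2 scale). Each run holds the 250 bases before the RefSeq start site (GRCm38.p6, plus strand, 5′ to 3′), and capitals mark CCAAT boxes, searched as CCAAT and, for the other strand, ATTGG.
Stk11 promoter, chr10:80115545-80115794: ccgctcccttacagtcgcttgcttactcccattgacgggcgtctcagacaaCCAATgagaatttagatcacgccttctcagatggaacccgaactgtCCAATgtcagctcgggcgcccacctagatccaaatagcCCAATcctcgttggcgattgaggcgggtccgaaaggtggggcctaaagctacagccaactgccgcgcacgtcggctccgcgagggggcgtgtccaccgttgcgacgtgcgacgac
Cab39 promoter, chr1:85793191-85793440: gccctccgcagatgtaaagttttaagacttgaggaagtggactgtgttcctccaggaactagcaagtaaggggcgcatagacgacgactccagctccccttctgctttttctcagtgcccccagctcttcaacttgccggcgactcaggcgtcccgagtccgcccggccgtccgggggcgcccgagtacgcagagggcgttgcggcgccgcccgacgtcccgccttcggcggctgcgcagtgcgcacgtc
Cab39l promoter, chr14:59440713-59440962: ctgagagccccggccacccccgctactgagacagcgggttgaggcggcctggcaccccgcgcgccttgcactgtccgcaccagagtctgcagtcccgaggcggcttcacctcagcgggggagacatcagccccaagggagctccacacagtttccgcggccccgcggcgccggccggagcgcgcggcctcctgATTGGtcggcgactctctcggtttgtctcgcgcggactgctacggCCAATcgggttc

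In windows that run from 250 bases before to 50 bases after the start site, the Stk11 promoter held 3 CCAAT boxes, at 199, 153 and 115 bases before the start. The first Cab39l promoter held 2, and the promoters of Strada, Stradb and Cab39 held none. Of 32851 promoters of that length in RefSeq, 37.4% held at least 1. Stk11 also had 33 CpG dinucleotides in its window, against a median of 7 over all promoters. Cab39 had 35 and the first Cab39l promoter 33, while a second Cab39l promoter on the same chromosome, starting at 59478701, had 3. Strada had 16 and Stradb 20. A GC box, searched as GGGCGG or CCGCCC, was present in the windows of Stk11 (1, starting 11 bases after the start site), Strada (2) and Cab39 (2) and in 35.7% of all promoters. A match is a stretch of letters and was not tested as a binding site.

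Stk11 and the trap were read from different cells. In the 3389 cells with a GFP UMI, Stk11 was at 0.352 CPM (exact Poisson 95% interval 0.241 to 0.497; 32 UMIs), and in the 8794 cells without one it was at 33.6 CPM (32.7 to 34.5; 5587 UMIs). The level was 95.5-fold lower with a GFP UMI (exact conditional binomial 95% interval 67.6 to 139.7), a log2 ratio of -6.58. Stk11 was the only 1 of the 5 members at least 1.5-fold apart in this contrast, and 16.3% of the 12650 genes at 1 CPM or more in either class were that far apart in either direction, and 9.38% of the genes tested were lower. Since the trap cuts the Stk11 transcript short, this contrast is also the check of the targeted gene. Cells with a GFP UMI were deeper, at a median of 24572 against 16937.5 UMIs.

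The same held within each gate. In the ATII gate Stk11 was at 0.354 CPM in 1757 cells with a GFP UMI (17 UMIs) and at 34.5 CPM in 5218 cells without one (3910 UMIs), a 97.4-fold difference (60.7 to 167). In the ATI gate the levels were 0.455 CPM in 244 cells (2 UMIs) and 47.3 CPM in 712 cells (423 UMIs), 104-fold apart (28.6 to 861). In the keratin-high gate they were 0.200 CPM in 645 cells (4 UMIs) and 30.4 CPM in 538 cells (326 UMIs), 152-fold apart (58.7 to 561). The intervals overlapped, so the sizes of the drop in the 3 gates did not differ beyond counting error. Downward shifts of at least 1.5-fold were seen in 2.38% of the genes tested in the ATII gate, 6.54% in the ATI gate and 5.93% in the keratin-high gate.

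**Figure D1:**
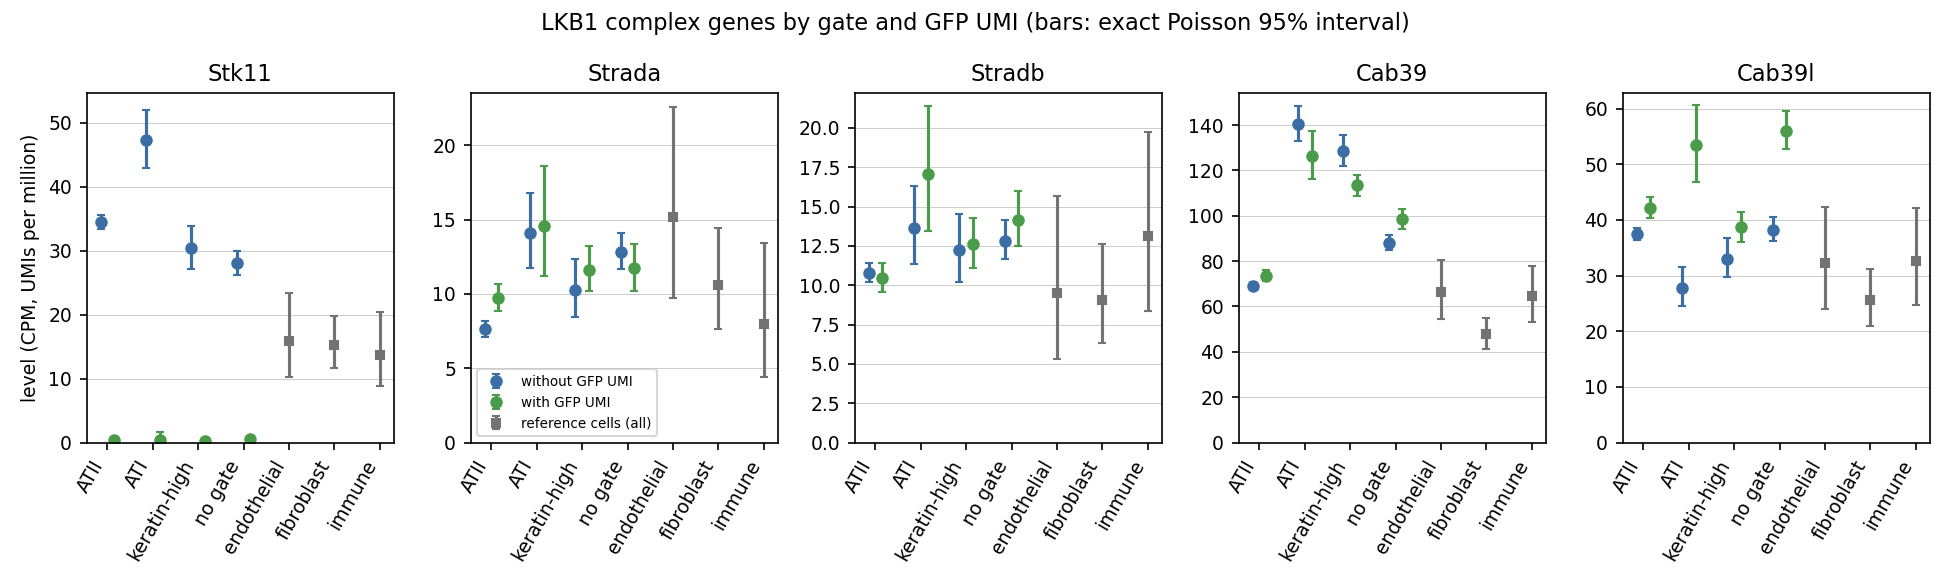
Level of each LKB1 complex gene (CPM, linear axes that start at 0 and differ between panels) in cells with and without a GFP UMI by gate and in the reference cells, with exact Poisson 95% intervals. Stk11 lies below 0.5 CPM in all 4 classes with a GFP UMI and between 28.0 and 47.3 CPM in those without, while the other members overlap or shift by far less.

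Stk11 was as low beside a single GFP UMI as beside several. It was at 0.443 CPM in the 1571 cells with exactly 1 GFP UMI (0.248 to 0.731), at 0.253 CPM in the 886 cells with 2 (0.0928 to 0.551) and at 0.330 CPM in the 932 cells with 3 or more (0.165 to 0.590). These intervals overlap, so no gradient with the GFP number was detectable. Of the 3389 cells with a GFP UMI, 26 had 1 Stk11 UMI, 3 had 2 and none had 3 or more. Of the 8794 cells without one, 1926 had 1 Stk11 UMI, 913 had 2 and 528 had 3 or more, up to 11 in a single cell. Where depth ranged from 5000 to over 40000 UMIs per cell, Stk11 stayed between 0.326 and 0.632 CPM in the 4 depth classes with a GFP UMI and between 32.8 and 35.4 CPM in those without.

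Most deep cells held one transcript or the other, and few held both. Among the 657 ATII-gate cells with at least 40000 UMIs, 49.6% had only Stk11 (exact binomial 95% interval 45.7 to 53.5), 37.4% only GFP (33.7 to 41.3), 0.761% both (0.248 to 1.77) and 12.2% neither (9.77 to 14.9). In the 183 keratin-high cells of that depth the order was turned, with 15.3% Stk11 only (10.4 to 21.3), 75.4% GFP only (68.5 to 81.5), 0.546% both and 8.74% neither. The ATI gate had 15 cells that deep, of which 9 had only Stk11, 5 only GFP and none both. After each cell was thinned to 5000 UMIs, which left out 1099 shallower cells, none of 11084 cells showed both transcripts, which allows a share of up to 0.0271% for reading both at 5000 UMIs and sets no limit on cells that hold both. At that equal depth 10.8% had GFP (10.2 to 11.4) and 10.4% had Stk11 (9.84 to 10.99).

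**Figure D2:**
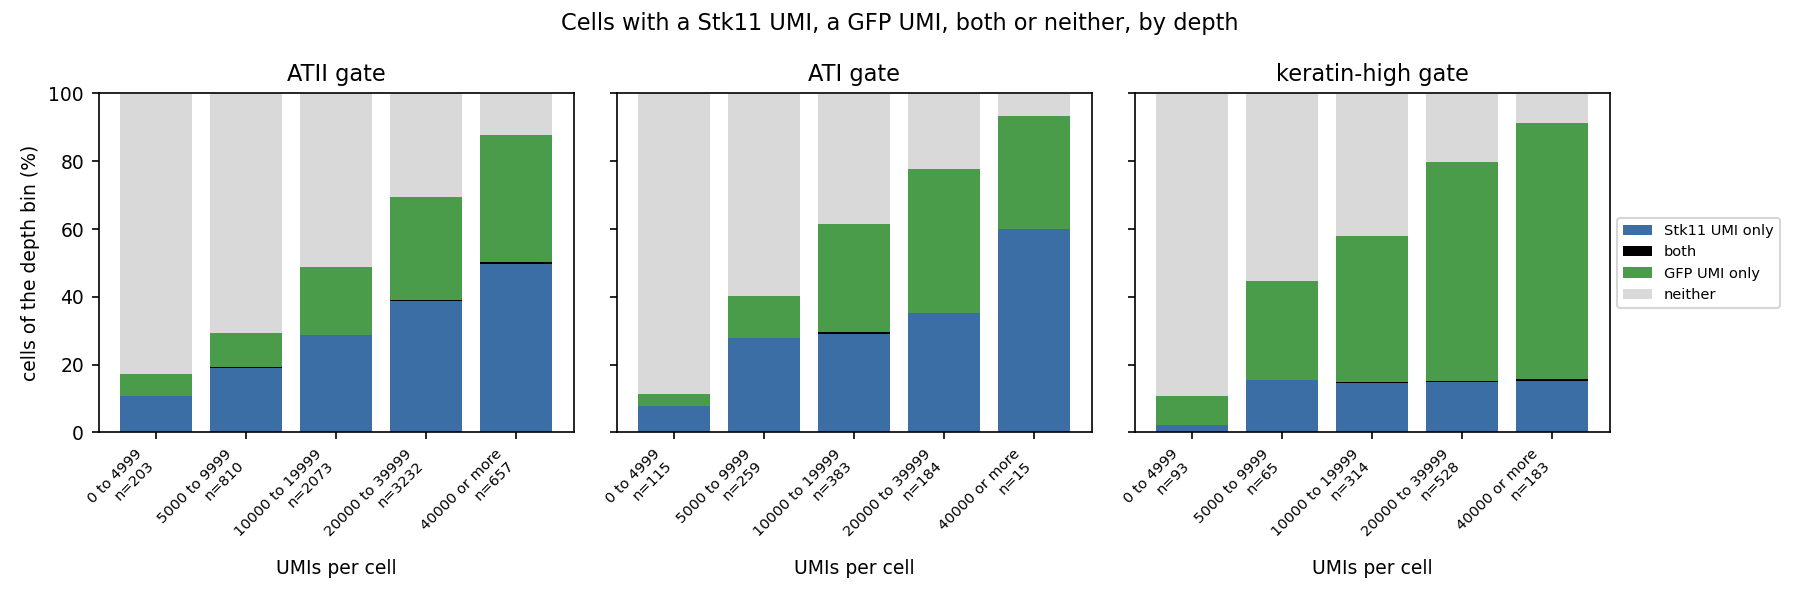
Share of cells (%, linear axis) with a Stk11 UMI only, a GFP UMI only, both or neither, by UMIs per cell and gate, with the number of cells under each bar. Cells with neither shrink with depth, the black band of cells with both stays under 1%, and GFP-only cells make up most of the deep keratin-high cells but fewer than the Stk11-only cells of the deep ATII gate.

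Reference cells, which carry transcripts of other lineages, held Stk11 and little GFP. Stk11 was at 15.8 CPM in endothelial (10.2 to 23.3; 25 UMIs), 15.3 CPM in fibroblast (11.6 to 19.7; 59 UMIs) and 13.7 CPM in immune reference cells (8.79 to 20.4; 24 UMIs). GFP was at 0.632 CPM (1 UMI), 1.04 CPM (4 UMIs) and 3.43 CPM (6 UMIs), against 21.0 to 51.7 CPM in the 3 gates. A GFP UMI was found in 0.800%, 0.830% and 5.13% of these reference cells, whose median depths were 9488, 14753 and 23683.5 UMIs, and in 25.2%, 25.5% and 54.5% of ATII, ATI and keratin-high cells. TdTomato transcript was lower in the reference cells too, at 440, 411 and 2302 CPM against 6491 to 10029 CPM in the gates. Cells of the ATII gate without a GFP UMI had more Stk11 than endothelial (2.15-fold, 1.45 to 3.33), fibroblast (2.24-fold, 1.73 to 2.96) and immune reference cells (2.38-fold, 1.58 to 3.75), each compared without GFP-bearing cells. The paper reports that the XTR allele lowers Lkb1 mRNA in several tissues even before Cre acts. It also reports higher Lkb1 in every cell compartment once the trap is removed. The state of the allele in the reference cells was not known here, and its part in these ratios was not tested.

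Keratin-high cells had the least Stk11 of the 3 gates, and the CPM difference was far smaller among cells without a GFP UMI. Over all cells of a gate Stk11 was highest in the ATI gate at 31.8 CPM (28.9 to 35.0; 425 UMIs), then 24.3 CPM in the ATII gate (23.6 to 25.1; 3927 UMIs), 18.1 CPM in ungated cells (17.0 to 19.3; 937 UMIs) and 10.8 CPM in the keratin-high gate (9.63 to 11.99; 330 UMIs), and no neighbours in that order had overlapping intervals. Keratin-high cells had 2.26-fold less Stk11 than ATII cells (2.02 to 2.54), a log2 ratio of -1.18. Within cells without a GFP UMI that ratio shrank to -0.18 on the log2 scale, 30.4 against 34.5 CPM or 1.13-fold lower (1.011 to 1.27). By depth, the intervals of these keratin-high and ATII cells overlapped in every class. The levels were 25.3 against 33.2 CPM from 10000 to under 20000 UMIs and 29.8 against 34.4 CPM from 20000 to under 40000. From 40000 UMIs the order was turned, at 38.3 against 35.8 CPM. Below 10000 UMIs keratin-high cells were lower too. The part of unread trapped transcript in this contrast was not tested. Relative to the median gene, which was 0.42 higher in keratin-high cells in that contrast, Stk11 was at -0.60. Within cells with a GFP UMI it was -0.82 on 4 and 17 UMIs, with an interval that spanned no difference (0.576 to 7.21-fold lower). GFP itself was 2.47-fold higher in the keratin-high than in the ATII gate (2.32 to 2.62), and GFP made up 82.8% of the sum of GFP and Stk11 UMIs there (81.0 to 84.5), against 46.3% in the ATII (45.2 to 47.5) and 52.3% in the ATI gate (49.0 to 55.6).

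The ATI gate differed from the ATII gate less, and in the other direction. Stk11 was 1.31-fold higher in ATI cells (1.18 to 1.45; log2 ratio 0.39), and 1.37-fold higher where only cells without a GFP UMI were compared (1.24 to 1.52). The median gene was itself 0.35 higher on the log2 scale in ATI than in ATII cells and 0.36 higher in keratin-high than in ATII cells. Relative to that median gene, Stk11 was 0.040 higher in ATI cells, at the 53.2nd percentile of all genes tested, so it shifted about as the median gene did. In keratin-high cells it was -1.53 relative to the median, at the 5.74th percentile.

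Thinned shares of cells gave the same order of the gates for Stk11. At 5000 UMIs per cell, 16.5% of ATI cells (14.1 to 19.2; n = 841), 11.5% of ATII cells (10.7 to 12.3; n = 6772) and 5.41% of keratin-high cells (4.15 to 6.93; n = 1090) had a Stk11 UMI. Before thinning the shares were 28.0%, 33.9% and 14.2%, and the shallower ATI cells then fell below ATII cells. Among cells without a GFP UMI the thinned shares were 23.1% in the ATI (19.8 to 26.7), 15.4% in the ATII (14.4 to 16.5) and 13.02% in the keratin-high gate (10.1 to 16.5), and before thinning 37.4%, 45.1% and 30.7%. In the reference cells the thinned shares were 5.13%, 10.4% and 4.41% for endothelial, fibroblast and immune cells, and the unthinned 16.0%, 20.3% and 21.8%.

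Of the 5 members, 2 were at least 1.5-fold higher in the ATI than in the ATII gate (Strada and Cab39) and none lower, where 43.5% of 12056 genes tested were that far apart, 31.4% upward and 12.2% downward. Between the keratin-high and the ATII gate, Cab39 was higher and Stk11 lower by that measure, where 45.4% of 12181 genes were apart, 34.2% upward and 11.2% downward. These counts lie near the background and are no result about the complex as a whole. Among cells without a GFP UMI, Strada and Cab39 were apart between the ATI and ATII gates (45.3% of all genes tested) and only Cab39 between the keratin-high and ATII gates (51.1%). Among cells with a GFP UMI, Stradb and Cab39 were apart between the ATI and ATII gates (43.2%), and Cab39 and, on 4 and 17 UMIs, Stk11 between the keratin-high and ATII gates (38.1%). Which members were apart depended on the scaling. Relative to the median gene, only Cab39 was 1.5-fold apart between the ATI and ATII gates and only Stk11 between the keratin-high and ATII gates. Among cells without a GFP UMI that scaling put Cab39 (0.66) and Cab39l (-0.79) apart in ATI cells, and Stk11 (-0.60) and Cab39l (-0.60) but not Cab39 (0.48) in keratin-high cells. Among cells with one it left no member apart in ATI cells and only Stk11 (-1.07) in keratin-high cells.

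Over all kept cells the STRAD genes were the members with the fewest UMIs. Strada (ENSMUSG00000069631; chr11:106163330-106202168, minus strand) encodes the pseudokinase STRADα. It was at 8.25 CPM in the ATII gate (7.81 to 8.70; 1332 UMIs), 14.2 CPM in the ATI gate (12.3 to 16.4; 190 UMIs), 11.2 CPM in the keratin-high gate (10.0 to 12.4; 342 UMIs) and 12.4 CPM in ungated cells. ATII cells had the least, ATI and ungated cells did not differ beyond their intervals, and neither did ungated and keratin-high cells. At equal depth keratin-high and ATII cells had overlapping shares with a Strada UMI, 4.68% (3.50 to 6.11) and 4.75% (4.26 to 5.29), against 23.6% and 16.4% before thinning, and relative to the median gene keratin-high cells were at 0.080. The ATI level was 1.73-fold that of ATII cells (1.48 to 2.01) and, relative to the median gene, 0.44 higher on the log2 scale. Its level also fell with depth. In all cells without a GFP UMI it was 16.7 CPM from 5000 to under 10000 UMIs and 6.38 CPM from 40000. Without a GFP UMI, ATI and ATII cells of 10000 to under 20000 UMIs had 16.4 (12.5 to 21.1) and 9.39 CPM (8.22 to 10.7). In every other depth class, with or without a GFP UMI, the intervals of ATI and ATII cells overlap. In thinned cells the log2 ratio was 0.67. How much of the ATI difference goes with depth was not tested. The gene overlaps Ccdc47 on the same strand near its 5-prime end, away from its last exon at 106163848 to 106164191. Where its reads fall was not examined.

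Stradb (ENSMUSG00000026027; chr1:58973522-58995715, plus strand) encodes STRADβ, the relative that can stand in for STRADα. Its levels were 10.7 CPM in the ATII gate (10.2 to 11.2; 1724 UMIs), 14.8 CPM in the ATI gate (12.8 to 17.0; 197 UMIs), 12.5 CPM in the keratin-high gate (11.3 to 13.8; 383 UMIs) and 13.3 CPM in ungated cells. The intervals of the ATI, keratin-high and ungated cells overlapped. Relative to the median gene Stradb was at 0.12 in ATI cells and -0.13 in keratin-high cells on the log2 scale, so it shifted about as the median gene did.

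In CPM neither STRAD gene was 1.5-fold apart between cells with and without a GFP UMI of a gate, but the values for the ATI gate changed with thinning. In the ATII gate Strada was at 9.72 CPM with a GFP UMI (8.86 to 10.6) and 7.62 CPM without (7.12 to 8.15), 1.28-fold higher (1.14 to 1.43). This was 0.21 above the median gene on the log2 scale, at the 82.9th percentile. Summed over 5 cell cycle markers, the same cells had 120 CPM with and 22.8 CPM without a GFP UMI, whose part in the Strada difference was not tested. The Strada ratio was 1.03 in the ATI gate (0.753 to 1.41) and 1.13 in the keratin-high gate (0.899 to 1.43), intervals that include no difference. Stradb gave ratios of 0.970 (0.873 to 1.08), 1.25 (0.926 to 1.68) and 1.03 (0.833 to 1.29) in the ATII, ATI and keratin-high gates. After thinning, 5.62% of ATII cells with a GFP UMI (4.59 to 6.81) and 4.46% of those without (3.901 to 5.06) had a Strada UMI, against 22.1% and 14.5% before, and the thinned intervals overlap. In the ATI gate the thinned Strada shares were 4.58% with (2.31 to 8.05) and 7.99% without a GFP UMI (5.95 to 10.4), against 22.1% and 15.6% before, and the thinned Stradb shares were 11.2% (7.55 to 15.9) and 5.49% (3.81 to 7.63), against 23.4% and 15.3% before. Both pairs of thinned intervals overlap, on 11 to 48 cells with a UMI. With GFP also read after thinning, the log2 ratio in the ATI gate was -0.97 for Strada and 1.10 for Stradb, and in the keratin-high gate -0.13 for Strada and -0.55 for Stradb. Strada in both gates and Stradb in the keratin-high gate thus changed sign with thinning, while Stradb in the ATI gate kept its direction. In the ATII gate Stradb changed sign too, from -0.043 to 0.19, while Strada kept its direction at 0.31.

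**Figure D3:**
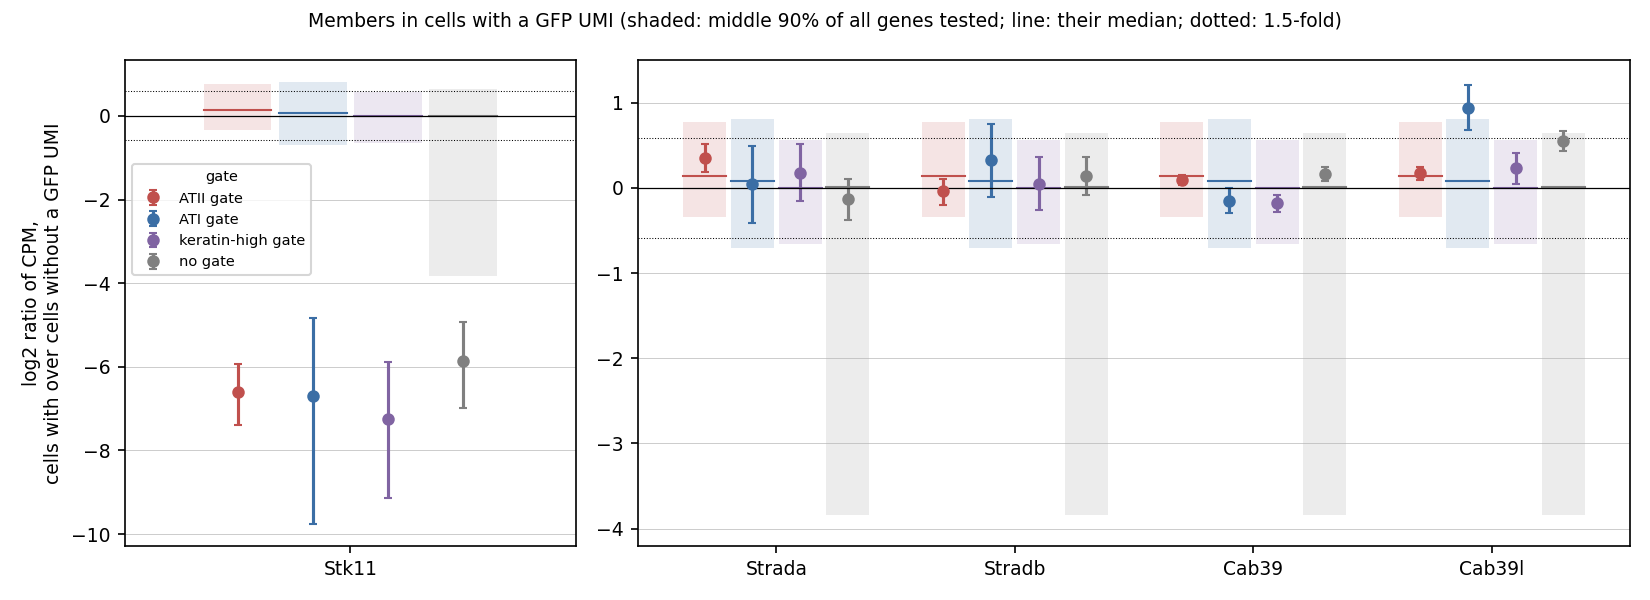
Log2 ratio of CPM in cells with over cells without a GFP UMI for the members in each gate, with exact conditional binomial 95% intervals, on separate linear axes for Stk11 and for its partners. Shaded bands hold the middle 90% of all genes tested in that gate. Stk11 lies between -7.25 and -5.85, below every band, and Cab39l in the ATI gate, at 0.94, is the only partner above its band.

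Cab39 (ENSMUSG00000036707; chr1:85793441-85851576, plus strand) encodes MO25α, the scaffold that holds LKB1 and STRAD together. It was at 70.5 CPM in the ATII gate (69.3 to 71.9; 11395 UMIs), 136 CPM in the ATI gate (129.8 to 142; 1814 UMIs), 119 CPM in the keratin-high gate (115 to 123; 3642 UMIs) and 91.9 CPM in ungated cells (89.3 to 94.6). All 4 levels lay outside each other's intervals, with ATI highest and ATII lowest. Relative to ATII cells the ratio was 1.93 in ATI (1.83 to 2.02) and 1.68 in keratin-high cells (1.62 to 1.75), or 0.60 and 0.40 on the log2 scale above the median gene. The endothelial, fibroblast and immune reference cells had 66.4, 47.7 and 64.6 CPM, none above ATII cells beyond counting error. The thinned shares of cells with a Cab39 UMI were 29.9% in the ATII, 48.5% in the ATI and 44.8% in the keratin-high gate (73.7%, 74.5% and 85.6% before thinning).

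The higher Cab39 level outside the ATII gate was present in cells with and without a GFP UMI. In cells without a GFP UMI, Cab39 was 2.03-fold higher in ATI than ATII cells (1.91 to 2.16) and 1.86-fold higher in keratin-high cells (1.75 to 1.97). In cells with a GFP UMI these ratios were 1.72 (1.57 to 1.88) and 1.54 (1.46 to 1.62). Between cells with and without a GFP UMI of the same gate Cab39 hardly differed in CPM. The ratio was 1.06 in the ATII (1.02 to 1.11), 0.899 in the ATI (0.813 to 0.995) and 0.882 in the keratin-high gate (0.824 to 0.944), and none of these was 1.5-fold apart. Over the alternative settings its log2 ratio ran from -0.053 to 0.18 in the ATII and -0.55 to -0.060 in the ATI gate. In the keratin-high gate it ran from -0.23 to 0.20, so the directions in the ATII and keratin-high gates depended on the settings.

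Cab39l (ENSMUSG00000021981; chr14:59440972-59585764, plus strand) encodes MO25β and overlaps Cdadc1 on the opposite strand. Its pooled CPM differed little between the gates, but the ATI to ATII ratio in CPM differed between cells with and without a GFP UMI. Pooled levels were 38.9 CPM in the ATII (37.9 to 39.8; 6278 UMIs), 36.3 CPM in the ATI (33.1 to 39.7; 484 UMIs) and 36.7 CPM in the keratin-high gate (34.6 to 38.9; 1126 UMIs). The ATI to ATII ratio was 0.933 (0.849 to 1.02) and the keratin-high to ATII ratio 0.945 (0.886 to 1.007), both about 0.44 below the median gene on the log2 scale. Without a GFP UMI ATI cells had 27.8 CPM against 37.5 CPM in ATII cells, 1.35-fold lower (1.18 to 1.54), and with one they had 53.4 against 42.2 CPM, 1.27-fold higher (1.10 to 1.45). Relative to the median gene these log2 ratios were -0.79 and 0.035, so with a GFP UMI Cab39l shifted about as the median gene did. The pooled log2 ratio of ATI to ATII cells, -0.10, also depended on the settings, and it was -0.45 with each cell weighing the same, -0.38 in thinned cells and -0.67 with stricter gates. Ungated cells had more, at 44.6 CPM (42.8 to 46.5). Thinned shares of cells with a Cab39l UMI were 17.9% in the ATII (17.0 to 18.9), 13.6% in the ATI (11.3 to 16.1) and 16.8% in the keratin-high gate (14.6 to 19.1), lower in ATI than in ATII cells beyond counting error, and 52.4%, 30.3% and 49.7% before thinning.

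In the ATI gate the Cab39l level differed between cells with and without a GFP UMI. It was at 53.4 CPM in the 244 ATI cells with a GFP UMI (46.8 to 60.7; 235 UMIs) and 27.8 CPM in the 712 without (24.5 to 31.5; 249 UMIs), 1.92-fold apart (1.600 to 2.30). Together with Stk11 it made 2 of 5 members at least 1.5-fold apart in that gate, where 15.3% of 11956 genes were and 8.76% of the genes tested were higher. Cab39l was at the 96.0th percentile of genes tested there. Thinned to equal depth, 21.7% of ATI cells with a GFP UMI (16.6 to 27.4) and 10.3% of those without (8.001 to 13.03) had a Cab39l UMI, against 51.6% and 23.0% before. By depth the intervals were apart from 10000 to under 20000 UMIs per cell, at 49.1 (39.4 to 60.3) against 28.3 CPM (23.1 to 34.4), and from 20000 to under 40000 UMIs, at 59.8 (49.7 to 71.4) against 34.0 CPM (27.5 to 41.6). They overlapped from 5000 to under 10000 UMIs, at 32.3 (13.9 to 63.6) against 15.1 CPM (9.88 to 22.2), and from 40000 UMIs, at 57.0 (31.2 to 95.6) against 38.6 CPM (23.9 to 58.9) in 5 and 10 cells. Under 5000 UMIs 4 cells with GFP held no Cab39l UMI, and the 111 without were at 18.9 CPM.

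Elsewhere the split of Cab39l was smaller. The ratio was 1.13 in the ATII gate (1.07 to 1.19), 1.17 in the keratin-high gate (1.03 to 1.33) and 1.46 in ungated cells (1.35 to 1.59), where Stk11 was the only member at least 1.5-fold apart and 26.5% of 13571 genes were. In the ATII gate the log2 ratio, 0.17, was -0.014 in thinned cells and 0.030 relative to the median gene. The ATI interval does not overlap that of any other class, and this is a difference between classes of cells in 1 pooled sample. Summed ATI markers were at 11887 CPM in ATI cells with a GFP UMI and 13055 CPM in those without, and summed ATII markers at 7964 and 12602 CPM. Their part in the Cab39l difference was not tested.

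As a share of the pair, Cab39 took 64.5% of Cab39 plus Cab39l UMIs in the ATII gate (63.8 to 65.2), 78.9% in the ATI gate (77.2 to 80.6) and 76.4% in the keratin-high gate (75.2 to 77.6). In the reference cells it took 65.0 to 67.3%. Within ATI cells the share was 83.5% without a GFP UMI (81.5 to 85.3) and 70.3% with one (67.0 to 73.5), the widest gap of any gate. In keratin-high cells it was 79.6% (77.6 to 81.4) against 74.6% (73.0 to 76.1), and in ATII cells 64.9% (64.0 to 65.7) against 63.6% (62.3 to 64.8). Strada took 43.6% of the STRAD pair in the ATII gate (41.8 to 45.4), 49.1% in the ATI gate (44.0 to 54.2) and 47.2% in the keratin-high gate (43.5 to 50.9). Only in the ATII gate did the Strada share differ with GFP beyond counting error, at 48.2% with (45.01 to 51.4) and 41.4% without a GFP UMI (39.3 to 43.6).

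**Figure D4:**
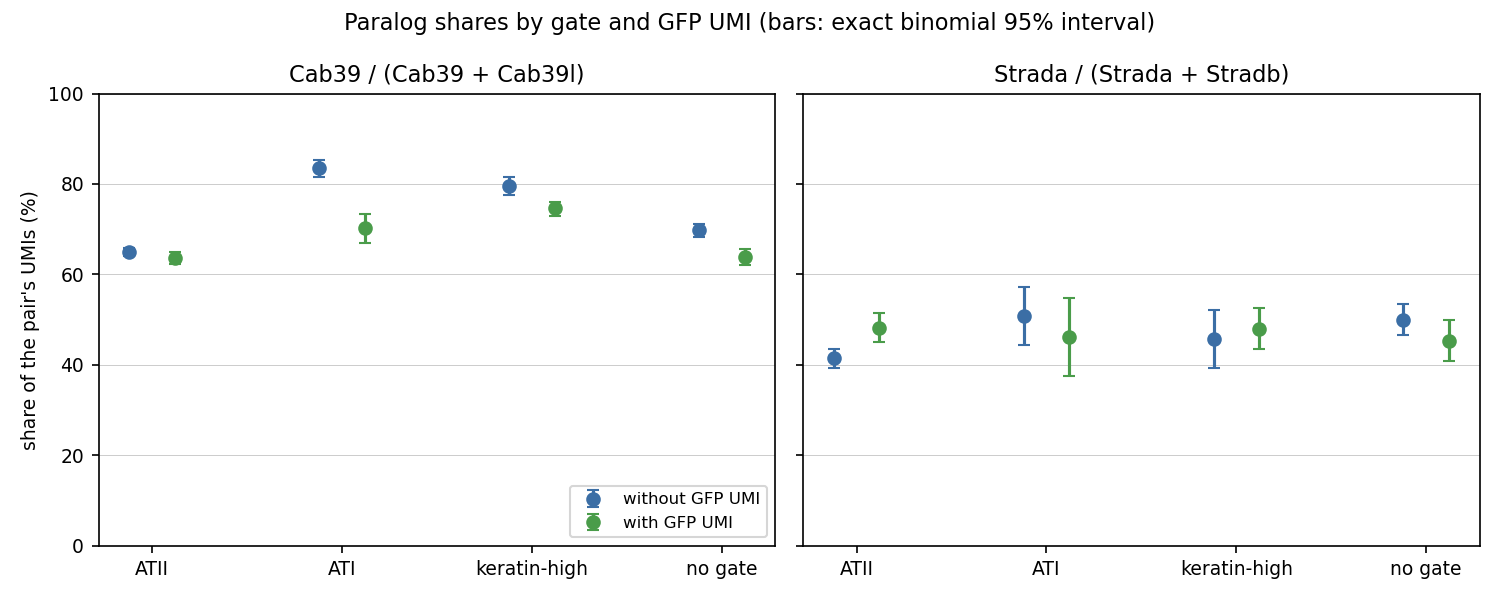
Cab39 as a share of Cab39 plus Cab39l UMIs and Strada as a share of Strada plus Stradb UMIs (%, linear axis from 0 to 100) by gate in cells with and without a GFP UMI, with exact binomial 95% intervals. The Cab39 share is lowest in the ATII gate, at 63.6 and 64.9%, and the widest gap between cells with and without GFP is in the ATI gate.

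The partners were also compared between cells split by which of the 2 transcripts was read. At 5000 UMIs per cell, 561 ATII cells had GFP only and 778 had Stk11 only, and the partner levels were then taken from the full counts of those cells, whose median depths were 23164 and 20487.5 UMIs. Strada was at 10.4 CPM in the GFP-only cells (8.79 to 12.2) and 6.34 CPM in the Stk11-only cells (5.21 to 7.64), 1.64-fold apart (1.27 to 2.12), the only partner at least 1.5-fold apart there, where 17.2% of 11863 genes were. Stradb gave a ratio of 0.925 (0.739 to 1.16), Cab39 1.13 (1.04 to 1.23) and Cab39l 1.15 (1.02 to 1.29). In the ATI gate, with 115 GFP-only and 139 Stk11-only cells, Cab39l was 2.72-fold higher in the GFP-only cells (1.88 to 4.01; 56.0 against 20.6 CPM), while the intervals of the other partners included no difference. With Strada, at a ratio of 0.588 (0.305 to 1.10), 2 of 4 partners were 1.5-fold apart there, where 31.6% of all genes were, and the median depths were 14111 and 12220 UMIs. In the keratin-high gate, with 234 and 59 cells, all 4 partner intervals included no difference and none was 1.5-fold apart, where 31.1% of all genes were.

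The neighbourhood of the complex was read from 31 listed genes: 14 kinases that LKB1 activates, 7 regulators and chaperones, 5 other kinases that bind MO25 and 5 AMPK regulatory subunits. Between the ATI and ATII gates 29 reached 1 CPM, of which 10 were at least 1.5-fold higher in ATI cells and 4 lower, beside 31.4% and 12.2% of all genes tested, with a median log2 ratio of 0.42 against 0.35 for all genes. The list is thus near the background, and the genes named are its members furthest apart at 10 CPM or more. Among kinases that also bind MO25, Stk26 was 2.18-fold higher (1.81 to 2.61; 10.5 against 4.81 CPM), while Stk39, which acts on ion transporters, was 2.09-fold lower (1.92 to 2.28; 42.4 against 88.7 CPM). Prkcz, an atypical protein kinase C, was 1.84-fold higher, and the LKB1 substrates Sik1 and Mark3 were 1.75-fold and 1.69-fold higher. Hsp90ab1, a chaperone of many kinases including LKB1, was 1.71-fold higher.

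Between the keratin-high and ATII gates 28 of the 31 reached 1 CPM, of which 10 were higher and 1 lower, beside 34.2% and 11.2% of all genes tested, with a median of 0.43 against 0.36, so the count of higher genes was again near the background. The chaperones Hsp90ab1 (2.41-fold; 3400 against 1413 CPM) and Hsp90aa1 (1.92-fold; 1030 against 535 CPM) and their kinase cochaperone Cdc37 (1.71-fold) stood at the top. Sik1 followed at 1.67-fold, with Stk24 at 1.66-fold and Oxsr1 at 1.65-fold, both of which bind MO25.

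Few of these genes were apart between cells with and without a GFP UMI. Over all kept cells 1 of 29 listed genes was at least 1.5-fold higher and 2 were lower, where 16.3% of all genes were apart. Within gates none of 27 listed genes was at least 1.5-fold higher and 1 lower in the ATII gate, 0 of 29 moved in either direction in the ATI gate, and none of 28 was higher and 1 lower in the keratin-high gate. The background of genes that far apart was 9.94%, 15.3% and 10.6%. None of the listed genes apart within a gate reached 10 CPM. The medians of the list, 0.19, 0.092 and 0.031 on the log2 scale, lay beside 0.14, 0.080 and -0.0012 for all genes.

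Likeness of pattern was described over 8 classes, the 3 gates and the ungated cells each with and without a GFP UMI, by Pearson's r of log2(CPM + 1) among 7842 genes at 10 CPM or more. Genes are not replicates, the 8 classes come from 1 sample, and r ignores the size of the change. The Stk11 pattern was like that of only 2 genes at r above 0.9, Nr1d1 (0.95) and Cbx7 (0.92), followed by Usp53 (0.88). Their ranges were 1.13, 0.39 and 0.61 on the log2 scale against 5.33 for Stk11. Cab39 was far more common in its pattern, with 863 genes above 0.9 led by Prkci, Rab11fip1 and Tprgl. Strada had 356 such genes, led by Clk2, Macf1 and Vezf1, and Stradb 272, led by Zfp329, Glod4 and Zfp637. Cab39l had 6, led by Clip4, Pde4d and Zfp106. Among the members, Strada and Stradb were most alike (0.83), Cab39 and Cab39l were not alike (-0.23), and Stk11 and Cab39l ran opposite (-0.76).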

How the data were processed

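Alignment to mm10 and counting were done by the authors with Cell Ranger 3.0.2, which counts reads of the sense strand. The deposited values are whole UMI counts per gene and cell, not normalized, in 1 pooled matrix of 16017 cells and 266713311 UMIs, with GFP and TdTomato as added features. No column of another series was present. A further allele shared by all mice is not reported here. The annotation release is not given in the sources used here. Cells with at least 500 genes and at most 20% mitochondrial UMIs were kept. Doublets were kept and no caller was run, and leaving out cells over 50000 UMIs was an alternative. Genes at 1 CPM or more in either class were counted as tested, and 1.5-fold was the limit for a gene to be called apart. Thinning drew 5000 UMIs per cell without replacement (seed 1). Intervals are exact Poisson (levels), exact conditional binomial (ratios) and Clopper-Pearson (shares), at 95%, and cover counting error only. A count of 0 was given a limit of 3 counts. The code for ratios and intervals was run on simulated Poisson counts, which leave out variation between cells and between mice.

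The members and gene lists were chosen with earlier results of these data known. Named genes were the 5 members, GFP and TdTomato, up to 6 listed genes per contrast with at least 10 CPM and 1.5-fold apart, and the 3 genes most like each member. Alternatives changed the cell filters, gates, scaling, weighting of cells, thinning and the GFP minimum. Coordinates came from GENCODE M21 (GRCm38) and promoters from RefSeq (GRCm38.p6), which matched all 5 members. Values and intervals were computed in Python 3.11.15 with scipy 1.17.1, numpy 2.4.6 and pandas 2.3.3, and plots in matplotlib 3.10.9.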

Additional observations from a re-analysis of the deposited data

How the results depend on the processing

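No paired analysis was possible because no file read here assigns cells to mice and no result comes from a test. No alternative reversed a direction of a called value. Of 420 recomputed log2 ratios of the members 342 stayed within the counting interval of the reported value and 78 did not. Of the recomputed counts of members at least 1.5-fold apart, 77 were within 1.5 times the reported count and 7 were not. For Stk11 between the ATI and ATII gates, 0.39 in the report, the log2 ratio was 0.15 in CPM without the most abundant and gate genes, 0.040 relative to the median gene, 0.54 in cells thinned to 5000 UMIs and 0.68 with stricter gates. The count of members apart there, 2 in the report, was 1, 1 and 4 without abundant genes, relative to the median and with stricter gates. For Stk11 between the keratin-high and ATII gates, -1.18 in the report, it was -1.53 without abundant genes, -1.53 relative to the median and -1.58 with stricter gates. In contrasts chosen after seeing the data it was -0.18 in cells without a GFP UMI and -0.82 in cells with one. The count there, 2 in the report, was 1 without abundant genes, 1 relative to the median, 1 in cells without a GFP UMI and 3 with stricter gates. With thinned cells, where 0 counts were set to 3 so that the values are bounds, the Stk11 log2 ratio with over without GFP was at least as low as -5.72 in all cells, -4.74 in the ATII, -3.08 in the ATI and -2.61 in the keratin-high gate. The count in the ATI gate with thinned cells was 4 against 2, and with stricter gates 3. Without thinning, stricter gates left no Stk11 UMI in keratin-high cells with GFP, and the bound there was -5.79. The cause of these shifts was not tested, except that thinning leaves fewer UMIs. The precision of Stk11 in cells with GFP rests on 32 UMIs, and that of the ATI gate on 2. Cells without a GFP UMI can hold the trapped transcript below detection, since 5427 of the 8794 had no Stk11 UMI either, and the share of all cells with neither transcript fell from 88.8% under 5000 UMIs to 11.1% from 40000 UMIs.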
